A study of Homo sapiens with 18 samples.

Results

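ERBB2, ERBB3 and ERBB4 are the 3 receptor tyrosine kinases that form a family with EGFR, the target of cetuximab. Their chromatin accessibility was read from 68 of the 115087 regions in the deposited table, namely all regions that overlapped one of the genes or the 20 kb on either side of it, using GENCODE gene models on GRCh37/hg19. ERBB2 (chr17:37844167-37886679, plus strand) had 9 regions. ERBB3 (chr12:56470583-56497289, plus strand) had 7, and ERBB4 (chr2:212240442-213403565, minus strand) had 52. Of these 68, 57 overlapped the gene itself and the others lay in a flank.

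Assay for transposase-accessible chromatin with sequencing (ATAC-seq) was performed on SCC1, SCC6 and SCC25, human cell lines established from head and neck squamous cell carcinoma (HNSCC) and sensitive to cetuximab. Each line received cetuximab, an antibody that blocks EGFR, at 100 nM every day for 5 days, or the vehicle PBS for the same time, and these 6 groups carried no other treatment or engineered allele in the labels. The groups held 3 libraries each, except SCC1 with PBS, where replicates 1 and 3 were analysed and replicate 2 was not analysed here. Nothing in the labels says that the replicates were separate cultures, so every p-value measures the spread between these libraries only, which may be technical.

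Reads in regions ranged from 2194851 to 4171650 per library in SCC1, from 4098164 to 15017130 in SCC6 and from 2513828 to 13408698 in SCC25. The median region had 7 to 68 reads in a library. All 7 squamous epithelial marker genes and all 3 fibroblast marker genes had a promoter region in the table, and none of the 3 endothelial genes had one. In SCC6 the promoters of KRT14 and DSG3, a basal keratin and a desmosomal cadherin, were near 0, with PBS means of 1.66 ± 0.885 and 0.988 ± 0.283 (n = 3), against 38.8 ± 5.16 and 42.8 ± 8.98 in SCC1 (n = 2). The other squamous markers ITGB4, CDH1, SFN, KRT5 and TP63 had SCC6 PBS means of 88.1, 79.8, 59.8, 21.4 and 18.5. Their SCC1 PBS means were 110.3, 77.7, 92.8, 56.1 and 37.3. The cells came as bulk material, so a lower signal can mean fewer cells with an open region, fewer cuts per open copy or fewer gene copies, and these cannot be told apart.

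EGFR family receptors work as dimers. ERBB2 has no known ligand of its own and is the preferred partner of the other members, ERBB3 binds neuregulins, has a weak kinase and passes the signal to PI3K, and ERBB4 binds neuregulins and some EGF-like ligands and has an active kinase. In squamous tumours treated with antibodies to EGFR, signalling through ERBB2 and ERBB3 is a known way around the block, and the transcription factor TFAP2A is a known activator of ERBB2 transcription.

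The 5 stretches printed here are the regions that the results turn on outside exons: the ERBB2 intronic element, the first ERBB3 promoter region, the 2 ERBB4 introns open in most libraries, and an ERBB4 intron open mainly in SCC25. They are the plus strand of GRCh37/hg19 from 5′ to 3′, cut to the middle 300 bases where the region was longer. Region 58457 is labelled by the lines where its signal was higher, and it also had peaks in 5 SCC25 libraries. Capitals mark matches to TGANTCA, the AP-1 motif, or to GCCNNNGGC, the TFAP2 motif, and a match is a run of letters, not a measured binding site.
Region 43270 in the ERBB2 intron, chr17:37862042-37862341: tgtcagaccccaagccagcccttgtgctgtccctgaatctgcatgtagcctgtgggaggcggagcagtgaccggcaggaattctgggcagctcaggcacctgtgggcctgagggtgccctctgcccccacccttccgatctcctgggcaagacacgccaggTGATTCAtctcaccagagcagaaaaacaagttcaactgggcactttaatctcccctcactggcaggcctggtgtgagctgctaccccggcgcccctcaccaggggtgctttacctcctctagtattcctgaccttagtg
Region 24145 at the ERBB3 promoter, chr12:56472853-56473152: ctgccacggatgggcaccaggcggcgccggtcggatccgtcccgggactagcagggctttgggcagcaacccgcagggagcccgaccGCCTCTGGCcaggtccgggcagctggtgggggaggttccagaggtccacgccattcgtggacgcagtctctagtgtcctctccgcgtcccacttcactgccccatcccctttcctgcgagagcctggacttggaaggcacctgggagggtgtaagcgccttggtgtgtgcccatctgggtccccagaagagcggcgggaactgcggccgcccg
Region 58413 in the ERBB4 intron, open in all lines, chr2:212273237-212273536: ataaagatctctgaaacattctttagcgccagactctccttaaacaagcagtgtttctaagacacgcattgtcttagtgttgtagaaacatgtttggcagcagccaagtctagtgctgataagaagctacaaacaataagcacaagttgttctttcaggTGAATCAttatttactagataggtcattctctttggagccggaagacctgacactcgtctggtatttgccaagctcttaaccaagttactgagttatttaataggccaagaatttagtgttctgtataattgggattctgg
Region 58457 in the ERBB4 intron, open in SCC1 and SCC6, chr2:213316574-213316873: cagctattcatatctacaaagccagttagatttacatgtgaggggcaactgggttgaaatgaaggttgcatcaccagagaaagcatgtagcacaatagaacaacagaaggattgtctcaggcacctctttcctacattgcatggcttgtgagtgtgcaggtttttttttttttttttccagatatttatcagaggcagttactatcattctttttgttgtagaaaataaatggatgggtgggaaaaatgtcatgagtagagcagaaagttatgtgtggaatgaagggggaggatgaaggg
Region 58434 in the ERBB4 intron, open in SCC25, chr2:212725007-212725306: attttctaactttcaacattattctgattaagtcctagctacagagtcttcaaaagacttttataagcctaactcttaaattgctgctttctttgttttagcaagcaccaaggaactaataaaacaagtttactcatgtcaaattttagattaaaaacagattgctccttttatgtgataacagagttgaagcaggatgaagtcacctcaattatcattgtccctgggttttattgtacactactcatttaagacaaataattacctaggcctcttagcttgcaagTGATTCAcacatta

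The 3 genes differed in what kind of regions they held. Regions of ERBB2 had a median width of 375 bases and a median GC content of 61.4%, those of ERBB3 417 bases and 63.3%, and those of ERBB4 211 bases and 37.1%. At ERBB2, 2 regions lay within 1 kb of an annotated start site of the gene and 4 within 1 kb of a start of another gene (PGAP3, MIEN1 or GRB7), with 1 region counted in both. At ERBB3, 2 regions were its own promoter and 2 were promoters of PA2G4 or of the ESYT1 and ZC3H10 pair. Of the 52 ERBB4 regions, 49 were intronic and 2 were promoter regions.

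Short motifs were searched on both strands of every region, and each region was counted once per motif. A match to GCCNNNGGC was present in 4 of 9 ERBB2 regions, 2 of 7 ERBB3 regions and 1 of 52 ERBB4 regions, against 14.5% of all regions in the table. The AP-1 letters TGANTCA were found in 4 of 9, 2 of 7 and 17 of 52, against 33.5% of all regions. GTAAACA, the FOXO motif, occurred in 1, 0 and 2 regions against 7.79% of all, and AACCNGGTT, the grainyhead motif, in 0, 0 and 1 against 0.243%. Region widths differ, and so does the median GC content, at 61.4%, 63.3% and 37.1% for the 3 genes against 45.9% over all regions. These shares are therefore descriptions, and the part of GC content in them was not tested.

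Values below are the deposited normalised read counts per region (signal), and changes are differences of log2(signal + 1), which understate the change of low regions. Differences were tested with limma over all regions whose mean signal lay above the lowest 25%, and a region was called at a Benjamini-Hochberg adjusted p under 0.05. In at least 1 comparison, 9 ERBB2, 7 ERBB3 and 47 ERBB4 regions passed this filter on low values.

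**Figure D1:**
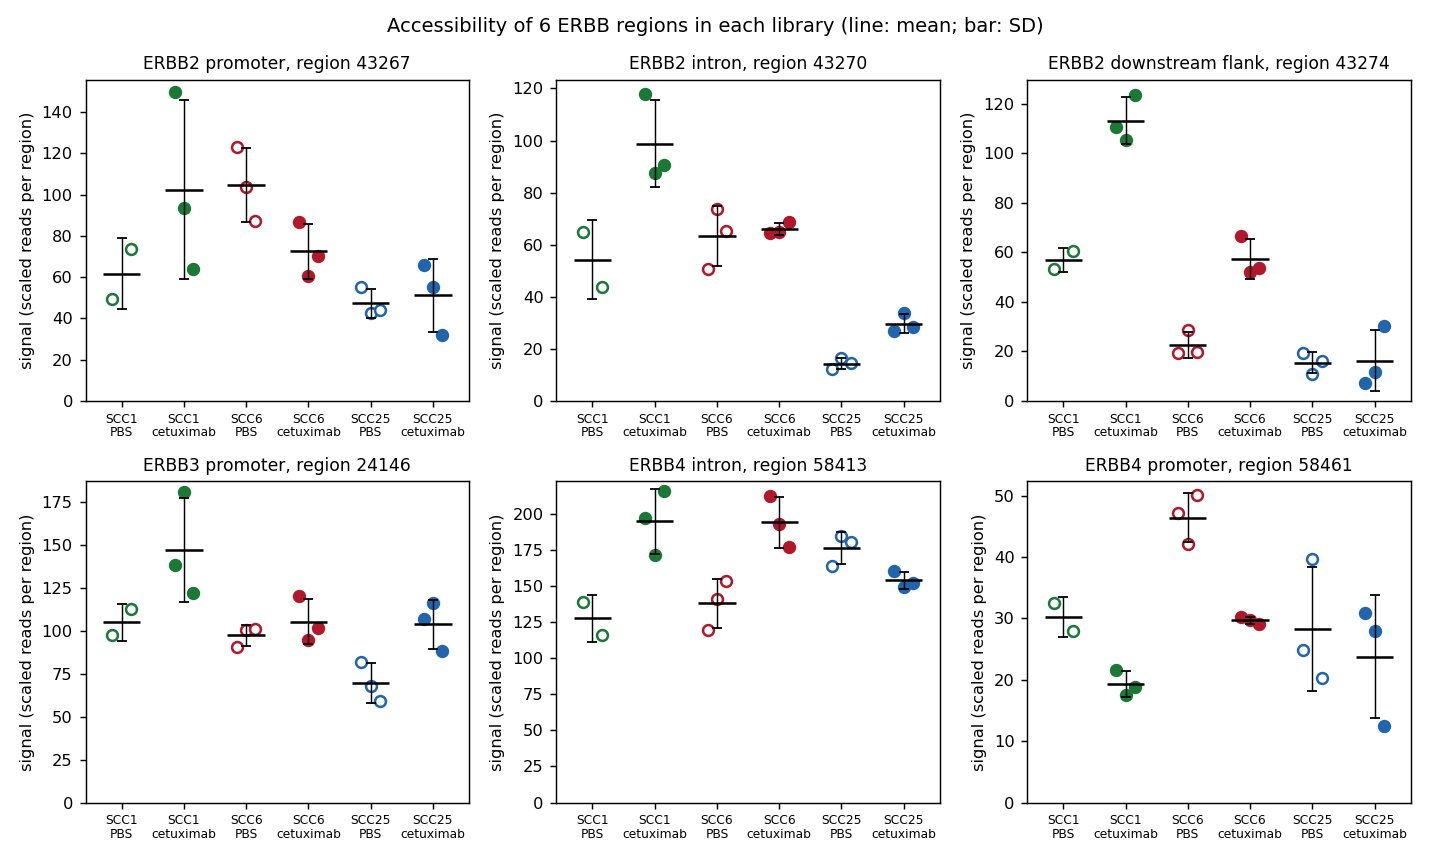
Signal (normalised reads, vertical axis) in each of the 17 libraries for 6 regions of ERBB2, ERBB3 and ERBB4, by cell line and treatment, where points are libraries and bars are group means with SD. SCC1 cetuximab libraries of the ERBB2 intron (87.6 to 118.0) lie above its PBS libraries (43.5 and 65.1), and the SCC25 libraries lie lowest.

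The upstream ERBB2 promoter region, centred at -12096 bases from the main start and shared with PGAP3, was accessible in all 3 lines. It fell with cetuximab in SCC6 and was not called in SCC1 or SCC25. Region 43267 (chr17:37844034-37844408) covers the first annotated ERBB2 start and the shared PGAP3 promoter. PBS libraries of SCC6 had 123.2, 103.7 and 87.0, and cetuximab libraries had 86.9, 60.3 and 70.1. The cetuximab libraries were all lower than the PBS libraries, though the nearest values were 86.9 and 87.0, and the change of -0.53 ± 0.19 was called (adjusted p = 0.0287). SCC1 libraries gave 49.4 and 73.7 with PBS against 149.8, 93.4 and 64.2 with cetuximab. The SCC1 groups overlapped, and the change of 0.67 ± 0.28 was not called (adjusted p = 0.101). Signal in SCC25 was 55.4, 42.5 and 44.1 under PBS and 66.1, 55.4 and 31.9 under cetuximab. These groups overlapped too, with a change of 0.06 ± 0.26 (adjusted p = 0.951). The test of a difference between lines in the response gave an adjusted p of 0.11 for this region. It was 0.0202 after centring, 0.00595 with edgeR, 0.0195 with DESeq2 and 0.0313 without SCC1 cetuximab replicate 3.

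In SCC6 the promoter call rested on single libraries. Leaving out cetuximab replicate 2 gave an adjusted p of 0.155, and leaving out PBS replicate 1 or 2 gave 0.16 or 0.0867. It was 0.329 after a trend with GC content was removed. The promoter region at the main ERBB2 start, 43269 (chr17:37856136-37856315), was weaker, with group means from 16.2 ± 6.82 (SD, n = 3) in SCC25 with cetuximab to 59.9 ± 8.05 (n = 3) in SCC1 with cetuximab. Its SCC1 change was 0.93 on the log2 scale with an adjusted p of 0.0585. In SCC6 its means were 27.3 ± 14.6 with PBS and 22.3 ± 4.96 with cetuximab, and in SCC25 17.8 ± 3.17 and 16.2 ± 6.82. Treatment groups overlapped in both lines, and no change was called. Peaks over it were called in 2 SCC6 libraries, 0 SCC1 libraries and 0 SCC25 libraries.

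Inside the gene, region 43270 (chr17:37862003-37862381) lies in an intron 5875 bases downstream of the main start, is not within 1 kb of an annotated start, and holds the AP-1 letters shown in capitals above. For SCC1, values were 65.1 and 43.5 in PBS and 118.0, 87.6 and 90.8 in cetuximab libraries. All 3 cetuximab libraries were above both PBS libraries, and the change of 0.87 ± 0.28 was called (adjusted p = 0.0239). The SCC6 libraries had 50.7, 73.6 and 65.3 (PBS) and 64.7, 65.0 and 68.8 (cetuximab). Here the groups overlapped (change 0.08 ± 0.21, adjusted p = 0.795). In SCC25 the signal was 12.1, 16.6 and 14.4 with PBS and 26.7, 33.9 and 28.3 with cetuximab. In SCC25 all cetuximab libraries were above all PBS libraries, from a low level, but the change of 1.00 ± 0.34 did not pass (adjusted p = 0.192).

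Over all 3 lines together, the same intronic region rose by 0.63 ± 0.17 on the log2 scale (adjusted p = 0.0177), with 9 of 9 cetuximab libraries above the PBS mean of their line. It was the ERBB2 region called in that comparison, 1 of 9 tested. Over all regions tested, 5.14% were called higher and 7.04% lower across the lines.

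Downstream of ERBB2 and past GRB7, which encodes an adaptor that binds ERBB2, region 43274 (chr17:37906370-37906882) had the largest change of the ERBB2 regions in both SCC1 and SCC6. PBS libraries of SCC1 had 53.3 and 60.3, and cetuximab libraries had 110.4, 105.1 and 123.6. SCC6 libraries gave 19.3, 28.8 and 19.6 with PBS against 66.7, 52.0 and 53.6 with cetuximab. Neither line had overlapping groups, with changes of 0.98 ± 0.27 in SCC1 (adjusted p = 0.00579) and 1.32 ± 0.27 in SCC6 (adjusted p = 0.000131). Signal in SCC25 was 19.2, 10.8 and 16.1 under PBS and 7.0, 11.7 and 30.1 under cetuximab. SCC25 groups overlapped at a low level (change -0.12 ± 0.47, adjusted p = 0.94). In SCC6 the call was kept under each of the 18 alternatives tried, including every left-out library. Among 9 tested ERBB2 regions in SCC6, 1 rose and 1 fell, where 16.9% of all regions rose and 10.6% fell.

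SCC1 held 2 further ERBB2 calls, both at promoters of neighbouring genes. Region 43271 (chr17:37886461-37887189) spans the end of ERBB2 and the start of MIEN1. For SCC1, values were 91.1 and 72.6 in PBS and 205.6, 95.4 and 147.1 in cetuximab libraries. The groups did not overlap, and the region rose by 0.80 ± 0.24 (adjusted p = 0.0156). Region 43272 (chr17:37895586-37895950) lies near a GRB7 start. The SCC1 libraries had 44.2 and 67.0 (PBS) and 101.5, 81.8 and 114.2 (cetuximab). These groups were apart too, and the rise was 0.84 ± 0.28 (adjusted p = 0.0291). The stronger GRB7 region 43273 (chr17:37896818-37897362) changed by -0.17 in SCC1, -0.17 in SCC6 and -0.059 in SCC25, with adjusted p of 0.755, 0.521 and 0.918.

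In all, 4 of 8 tested ERBB2 regions rose in SCC1 and none fell, where 4.57% of all regions tested rose and 6.56% fell. In that line 13.6% of promoter regions were called higher and 1.6% lower, and 9.92% of regions with at least 55% GC were called higher. All 4 ERBB2 calls lie in regions of 59.4% to 65.7% GC, and after removal of the GC trend their adjusted p were 0.18, 0.442, 0.286 and 0.152. The 6 calls over the 3 genes in SCC1 became 1 when cetuximab replicate 1 was left out, and 0 or 1 when PBS replicate 1 or 3 was. In the cases without a PBS library PBS keeps 1 library, which is assumed to vary like the other group.

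**Figure D2:**
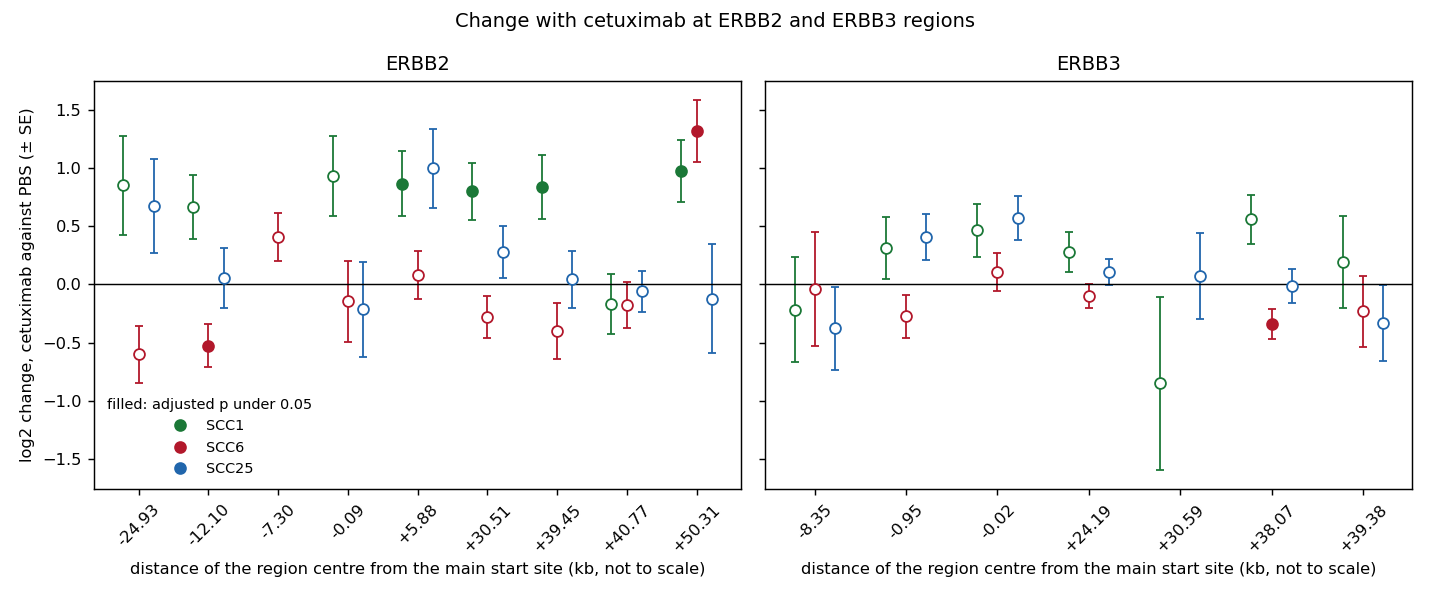
Change with cetuximab (log2 scale, with SE) in each line for the 9 ERBB2 and 7 ERBB3 regions, ordered along the gene and labelled by distance from the main start in kb (not to scale), filled where the adjusted p was under 0.05. ERBB2 changes in SCC1 lie mostly above 0 with a median of 0.85, and those in SCC6 have a median of -0.17.

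ERBB2 accessibility without drug also differed between the lines. With PBS, SCC25 was lower than SCC6 at 6 of 9 regions and higher at none, where 36.7% of all regions were higher in SCC25, 32.1% lower and 68.7% either. Against SCC1, SCC25 was lower at 3 of 9 and higher at none, where 28.2% of all regions were higher, 23.1% lower and 51.3% either. SCC6 against SCC1 gave 3 higher and 2 lower of 9, where 30.7% of all regions were higher, 30.5% lower and 61.2% either. Against these shares, 66.7%, 33.3% and 55.6% of the ERBB2 regions were called. Region 43268, called in both pairs with SCC6 and higher in SCC6, belongs to a class defined below by high signal in SCC6.

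The intronic region 43270 was lowest in SCC25. Its PBS mean was 14.4 ± 2.26 (SD, n = 3) in SCC25, 63.2 ± 11.6 (n = 3) in SCC6 and 54.3 ± 15.2 (n = 2) in SCC1. SCC25 differed from SCC6 by -2.06 ± 0.26 (adjusted p = 3.96e-06) and from SCC1 by -1.83 ± 0.29 (adjusted p = 9.42e-05). Both calls were kept under all 19 alternatives, whereas SCC6 and SCC1 differed by 0.23 ± 0.29 with an adjusted p of 0.52.

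At the promoter region 43267, SCC6 with PBS (104.7 ± 18.1) was higher than SCC25 (47.4 ± 7.01) by 1.12 on the log2 scale, the reverse contrast being -1.12 ± 0.20 (adjusted p = 0.000156). It was also higher than SCC1 (61.6 ± 17.2) by 0.77 ± 0.23 (adjusted p = 0.00855, but 0.126 without SCC1 PBS replicate 1). Over the 2 Mb on either side of ERBB2, the median difference of SCC25 from SCC6 was -0.28 on the log2 scale over 142 regions, against -0.68 for the 9 ERBB2 regions. For SCC25 against SCC1 it was -0.51 over the neighbours and -0.48 over the ERBB2 regions. Copy number of the locus was not measured, and its part in these differences was not tested.

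ERBB3 kept an open promoter in all groups, and it was called higher with cetuximab over the 3 lines together but in no single line. Region 24146 (chr12:56473619-56474236) covers the main start. In SCC1 the signal was 97.6 and 112.8 with PBS and 138.4, 181.0 and 122.1 with cetuximab. The lowest cetuximab library was above the highest PBS library, although the change of 0.46 ± 0.23 was not called (adjusted p = 0.194). PBS libraries of SCC25 had 82.2, 67.8 and 59.4, and cetuximab libraries had 106.9, 116.6 and 88.6. These groups were also apart, with a change of 0.57 ± 0.19 (adjusted p = 0.176). SCC6 libraries gave 90.6, 100.4 and 101.1 with PBS against 120.2, 94.7 and 101.5 with cetuximab. The SCC6 groups overlapped, with a change of 0.11 ± 0.16 (adjusted p = 0.643) that turned to -0.065 when libraries were centred on their median.

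Taken over the lines, the ERBB3 main promoter rose by 0.38 ± 0.12 (adjusted p = 0.0403), with 8 of 9 cetuximab libraries above the PBS mean of their line. That was the call among the 6 ERBB3 regions tested. It was kept in 16 of 28 alternatives, and 9 of the 17 libraries took it over the threshold when left out alone, to between 0.0564 (SCC6 PBS replicate 1) and 0.0814 (SCC1 PBS replicate 1). The others were SCC1 cetuximab replicate 2 and PBS replicate 3, SCC6 cetuximab replicate 1, and SCC25 cetuximab replicates 1 and 2 and PBS replicates 2 and 3. The call was also lost after removal of the GC trend (0.127) and with replicate number fitted as a block (0.129). The neighbouring promoter region 24145 (chr12:56472795-56473211), printed above with its TFAP2 letters, had PBS means of 74.0 ± 9.01 (n = 2) in SCC1, 91.0 ± 11.8 (n = 3) in SCC6 and 58.7 ± 9.06 (n = 3) in SCC25. Its cetuximab means were 93.1 ± 18.3, 75.1 ± 10.1 and 77.9 ± 6.19, each n = 3, and no change was called in any line.

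No ERBB3 region was called in SCC1, 0 of 7, with 2 of the 7 at an unadjusted p under 0.05, as were 20798 of all 86321 regions tested. In SCC6 there was 1 call in 6, a decrease, where 3.77% of promoter regions rose and 10.9% fell. It was region 24149 (chr12:56511729-56512316), the shared promoter of ESYT1 and ZC3H10 14440 bases past the end of ERBB3. Signal in SCC6 was 172.8, 178.7 and 188.2 under PBS and 134.4, 137.4 and 153.4 under cetuximab. All cetuximab libraries were lower, with a change of -0.34 ± 0.13 (adjusted p = 0.0412). Each single SCC6 library except cetuximab replicate 3 took the adjusted p over 0.05 when left out, up to 0.12 without PBS replicate 3, and removal of the GC trend gave 0.664.

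In SCC1 the same region had the opposite order. For SCC1, values were 134.0 and 120.6 in PBS and 252.6, 153.8 and 170.6 in cetuximab libraries. Cetuximab libraries were all above the PBS libraries, the change of 0.56 ± 0.21 was not called (adjusted p = 0.0677), and the response differed between lines (adjusted p = 0.0363). The interaction call was lost after GC removal (0.421), without a filter (0.0525) and on leaving out any of 9 single libraries, to between 0.0511 and 0.136 (SCC1 cetuximab replicate 1 and PBS replicates 1 and 3, SCC6 cetuximab replicates 1 and 2 and PBS replicates 1 to 3, and SCC25 PBS replicate 1). That test, an interaction of line and treatment, was called in 1 of 6 ERBB3, 0 of 9 ERBB2 and 3 of 38 ERBB4 regions, against 13.2% of all regions.

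With PBS, the ERBB3 main promoter was lowest in SCC25, at 69.8 ± 11.5 (n = 3), against 97.4 ± 5.87 (n = 3) in SCC6 and 105.2 ± 10.7 (n = 2) in SCC1. SCC25 differed by -0.49 ± 0.16 from SCC6 (adjusted p = 0.0149) and by -0.59 ± 0.18 from SCC1 (adjusted p = 0.0127). After removal of the GC trend neither was called (0.148 and 0.502). The values were 0.0678 and 0.0502 without SCC25 PBS replicate 3, and 0.0953 for SCC1 without its PBS replicate 3. Ranked by mean, only the top step (SCC1 with cetuximab over SCC6 with cetuximab) and the bottom step (SCC6 with PBS over SCC25 with PBS) separated neighbouring groups without overlap.

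ERBB4 had intronic regions open in 1 line and near background in another. With PBS, SCC25 differed from SCC6 at 30 of 36 tested regions, 17 higher and 13 lower. The other pairs gave 16 of 36 for SCC25 against SCC1 (12 higher, 4 lower) and 20 of 36 for SCC6 against SCC1 (12 higher, 8 lower). These are 83.3%, 44.4% and 55.6% of the tested regions, beside the 68.7%, 51.3% and 61.2% of all regions called in the same pairs.

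A set of 9 ERBB4 regions was highest in SCC25. They were picked after their values were seen, as regions with a PBS mean of at least 5 and at least 3 times that of both other lines, so their levels are a description. In SCC25 their PBS means ran from 16.3 to 135.9. Region 58442 (chr2:212896660-212897232) was the highest of the set. The SCC25 libraries had 128.1, 131.2 and 148.5 (PBS) and 139.2, 111.4 and 120.4 (cetuximab). Its SCC6 PBS libraries had 13.3, 32.8 and 18.5. SCC1 had 1.3 and 3.3 there, which is 0 or 1 read and 3 reads, so no fold against SCC1 is given. SCC25 was above SCC6 by 2.69 ± 0.35 (adjusted p = 5.53e-06), under each of 19 alternatives. The set was picked on this same difference, so the test adds no separate support.

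Region 58434 (chr2:212724977-212725336) was also highest in SCC25, and its printed stretch carries 1 match to the AP-1 letters. In SCC25 the signal was 70.5, 75.7 and 71.3 with PBS and 73.1, 58.6 and 58.4 with cetuximab. PBS libraries of SCC6 had 1.2, 0.7 and 1.1, and cetuximab libraries had 5.1, 5.6 and 6.6. The 3 SCC6 PBS values are 0 or 1 read each, and SCC25 and SCC6 did not overlap. MACS2 peaks over this region were called in 6 of 6 SCC25 libraries and in none of the other 11. Of the 9 SCC25-leading regions, 7 held the AP-1 letters, against 10 of the 29 ERBB4 regions that no line led, with median widths of 320 and 222 bases. The 14 ERBB4 regions that SCC6 led held none of these letters. Of them, 12 are a class seen in SCC6 alone, defined below, with a median width of 201 bases and 28.6% GC. These sets were picked on their values and differ in width and GC content, so the counts are descriptions.

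The opposite order was seen at region 58457 (chr2:213316472-213316976), 86802 bases into the gene from the main start. SCC25 libraries gave 41.5, 53.4 and 38.2 with PBS against 59.1, 78.8 and 33.6 with cetuximab. Signal in SCC1 was 163.9 and 136.2 under PBS and 238.6, 179.1 and 186.2 under cetuximab. For SCC6, values were 210.2, 175.3 and 225.1 in PBS and 279.8, 256.2 and 226.5 in cetuximab libraries. SCC25 was the lowest line, with PBS differences of -1.75 ± 0.18 from SCC1 (adjusted p = 1.84e-06) and -2.18 ± 0.16 from SCC6 (adjusted p = 1.08e-08), both called under all 19 alternatives. With cetuximab it rose in SCC6 by 0.32 ± 0.11 (adjusted p = 0.0311), and this call was lost when libraries were centred (0.364), after removal of the GC trend (0.406), with all libraries in 1 fit (0.327), with edgeR (0.0697) or DESeq2 (0.24), and on leaving out SCC6 cetuximab replicate 1 or 2 (0.164 or 0.0881) or PBS replicate 2 (0.208).

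The 2 promoter regions of ERBB4 were weak in all lines. Region 58461 (chr2:213403906-213404161) lies 341 bases upstream of the annotated gene. The SCC6 libraries had 47.1, 42.2 and 50.03 (PBS) and 30.3, 29.7 and 29.1 (cetuximab). SCC6 groups were apart, with cetuximab lower, and the change of -0.62 ± 0.26 had an adjusted p of 0.0622. It was 0.0121 after centring, 0.0394 with edgeR and 0.0497 with DESeq2. In SCC1 the signal was 32.5 and 27.9 with PBS and 21.6, 17.5 and 18.8 with cetuximab. Here the cetuximab libraries were also lower, with a change of -0.62 ± 0.47 (adjusted p = 0.45). PBS libraries of SCC25 had 24.9, 39.7 and 20.4, and cetuximab libraries had 30.9, 28.0 and 12.4. SCC25 groups overlapped (change -0.29 ± 0.36, adjusted p = 0.778). The fit over all lines gave -0.50 ± 0.20 (adjusted p = 0.101), so no change of this promoter was called. Peaks over it were called in 5 SCC6 libraries, 1 SCC25 library and 0 SCC1 libraries. Region 58460 (chr2:213402561-213402740), centred 876 bases inside the gene, had group means between 13.8 ± 7.78 and 28.8 ± 4.35 (n = 3 each).

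**Figure D3:**
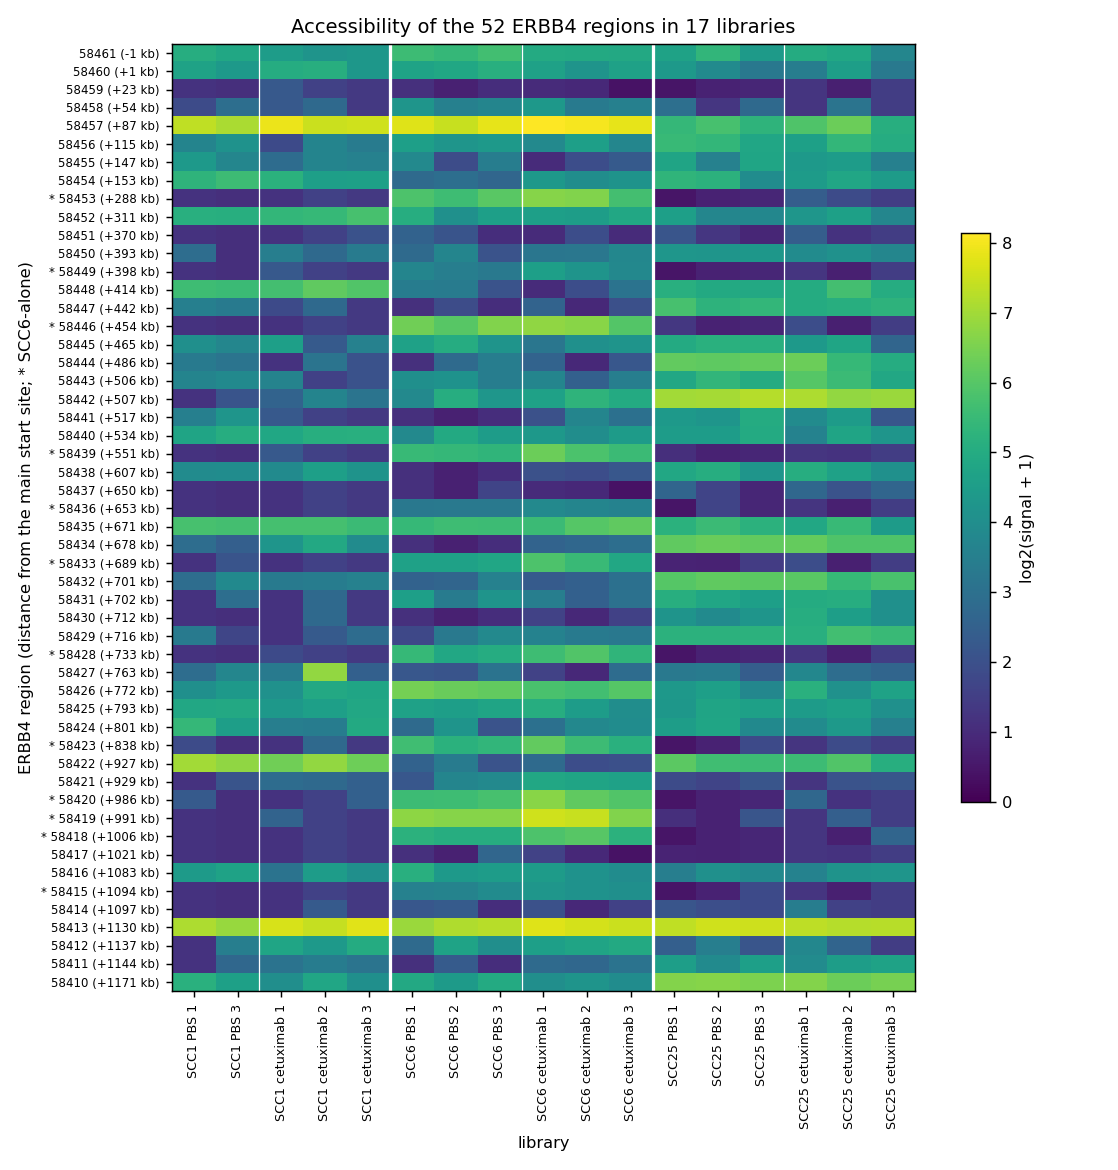
Signal on a log2(signal + 1) colour scale for the 52 ERBB4 regions (rows, ordered along the gene, with distance from the main start in kb) in 17 libraries (columns, grouped by line and treatment), with asterisks for regions seen in SCC6 alone. Regions 58457 and 58413 are bright in most libraries, 58442 and 58434 in the 6 SCC25 libraries, and 12 rows in the SCC6 libraries.

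The strongest ERBB4 region overall was 58413 (chr2:212273133-212273640), in an intron near the 3′ end of the gene and 1130140 bases from the main start, with 2 matches to the AP-1 letters and a peak in all 17 libraries. SCC1 libraries gave 139.2 and 116.1 with PBS against 196.7, 171.3 and 216.0 with cetuximab. Signal in SCC6 was 119.6, 141.2 and 153.4 under PBS and 212.1, 193.1 and 176.9 under cetuximab. In both lines every cetuximab library was above every PBS library, with changes of 0.60 ± 0.21 in SCC1 (adjusted p = 0.0416) and 0.49 ± 0.13 in SCC6 (adjusted p = 0.00366). For SCC25, values were 163.5, 184.6 and 180.7 in PBS and 160.3, 149.1 and 152.3 in cetuximab libraries. SCC25 had the opposite order without overlap, and its change of -0.19 ± 0.13 was not called (adjusted p = 0.565).

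The response of this region differed between lines by the interaction test (adjusted p = 0.0136), a call kept in 27 of 28 alternatives and lost at the stricter threshold of 0.01. The SCC6 increase was kept without each single library, and its adjusted p was 0.073 after centring, 0.098 after removal of the GC trend and 0.0532 with DESeq2. The SCC1 increase was not called when cetuximab replicate 1 or 3 was left out (0.122 or 0.152) or when PBS replicate 1 or 3 was (0.17 or 0.407).

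Among 34 tested ERBB4 regions in SCC1, 2 (5.88%) rose and none fell, beside 4.57% and 6.56% of all regions. Besides 58413 this was 58412 (chr2:212266182-212266371), in the same part of the gene. The SCC1 libraries had 1.3 and 10.0 (PBS) and 26.7, 19.5 and 31.3 (cetuximab). All cetuximab libraries were higher, and PBS replicate 1 had 0 or 1 read. The fitted change of 2.39 ± 0.65 (adjusted p = 0.00546) fell short of the threshold when replicate 1 of cetuximab (0.0554) or of PBS (0.38) was left out.

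In SCC6, 6 of 35 tested ERBB4 regions (17.1%) rose and none fell, beside 16.9% and 10.6% of all regions. Besides 58413 and 58457 they included 58421 (chr2:212473966-212474175). In SCC6 the signal was 3.6, 12.0 and 13.1 with PBS and 28.3, 26.0 and 24.5 with cetuximab. The groups did not overlap, and the change of 1.52 ± 0.40 (adjusted p = 0.0034) was called in each of 16 alternatives. Another was the intronic region 58454 (chr2:213249996-213250271). PBS libraries of SCC6 had 6.0, 6.7 and 5.4, and cetuximab libraries had 19.2, 14.9 and 17.2. Its groups were separate as well, and it rose by 1.35 ± 0.46 (adjusted p = 0.0239). It was not called without cetuximab replicate 1 (0.101), 2 (0.0579) or 3 (0.0721), with quantile scaling (0.0654) or with DESeq2 (0.0555). SCC1 libraries gave 37.7 and 46.9 with PBS against 35.5, 23.4 and 23.5 with cetuximab. In SCC1 its cetuximab libraries were all lower than its PBS libraries, and the interaction test gave an adjusted p of 0.0282. That value was 0.0588 after centring. It was 0.0504 to 0.0725 without SCC6 cetuximab replicate 1 or 3, SCC6 PBS replicate 3 or SCC25 PBS replicate 2.

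The 9 calls over the 3 genes in SCC6 became 5, 3 and 14 without SCC6 cetuximab replicate 1, 2 and 3.

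SCC25 had no call at any of the 3 genes, 0 of 49 tested, where 0.315% of all regions were called in either direction. At an unadjusted p under 0.05 there were 6, beside 11405 of all 86315 regions tested. With edgeR on recovered reads the count was 1, the ERBB3 main promoter (adjusted p = 0.0392), and with DESeq2 it was 0.

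Over all lines, 2 of 38 ERBB4 regions (5.26%) were called, both higher, beside 5.14% of all regions called higher and 7.04% lower. One was 58434, at 1.04 ± 0.29 (adjusted p = 0.0226), with 7 of 9 cetuximab libraries above the PBS mean of their line. Signal in SCC1 was 6.5 and 4.5 under PBS and 17.8, 29.2 and 14.1 under cetuximab. Cetuximab libraries were higher in SCC1 and SCC6, from PBS libraries of 1 to 5 reads, and not in SCC25, and the interaction test gave 0.0244, which was 0.0501 to 0.063 without SCC25 cetuximab replicate 2 or 3 or any SCC25 PBS library. The size of such a fitted change depends on the pseudocount, and the adjusted p over all lines was 0.165 with edgeR, 0.0657 with DESeq2 and 0.0555 without SCC1 PBS replicate 3. The other was 58453 (chr2:213115393-213115586), at 0.66 ± 0.21 (adjusted p = 0.0442). The SCC1 libraries and the SCC25 PBS libraries all had 0 or 1 read there, so the number of libraries above the PBS mean is not given. Each such value is only the scaling step of the library, and these steps enter the fitted change. In SCC1 the steps were 1.27, 1.95 and 1.57 with cetuximab and 1.30 and 1.12 with PBS. Region 58453 had SCC6 means of 56.7 ± 8.54 with PBS and 81.6 ± 26.4 with cetuximab, and means of 0.649 to 2.86 in the other groups. The 4 calls over the 3 genes became 1 without SCC1 PBS replicate 3, and 2 without SCC6 cetuximab replicate 1, SCC6 PBS replicate 1 or SCC25 PBS replicate 2. The 4 interaction calls became 7 without SCC1 cetuximab replicate 2, and 2 without SCC6 cetuximab replicate 1 or SCC25 PBS replicate 1 or 2.

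Region 58453 belongs to a class seen in SCC6 alone, defined after the values were seen as a mean signal of at least 8 in SCC6 and under 3 in both other lines. It held 12 of the 52 ERBB4 regions, 1 of the 9 ERBB2 regions and 0 of the 7 ERBB3 regions, against 13565 regions or 11.8% of the table. One of them is region 58420 (chr2:212417384-212417584). For SCC6, values were 47.1, 48.2 and 53.3 in PBS and 103.0, 70.6 and 59.2 in cetuximab libraries. All SCC6 cetuximab libraries lay above all SCC6 PBS libraries, and every SCC1 and SCC25 library was below the SCC6 libraries. The order of the lines follows from how the class was defined.

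Region 58418 (chr2:212397519-212397719) was among the ERBB4 regions with the smallest adjusted p in both comparisons with SCC6, 3.37e-09 against SCC1 (also reached by 58439 and 58453) and 2.36e-10 against SCC25 (also reached by 58453), and both differences changed sign after removal of the GC trend. Its PBS mean was 33.9 ± 2.04 (n = 3) in SCC6, and every PBS library of the other lines had 0 or 1 read, so no fold is given. The class was defined by high SCC6 and low other lines, so these adjusted p add no separate support. The reversed differences were called as well. The ERBB2 member of the class, 43268 (chr17:37848919-37849119), had a PBS mean of 65.4 ± 9.21 in SCC6, and 24.1% of its 32-base words occur elsewhere in the genome.

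The class had features of its own. Its regions had a median width of 200 bases, 89.0% were 195 to 205 bases wide, and the median GC content was 31.3%, against 286 bases, 10.9% and 47.6% for the other regions. At ERBB4 the 12 regions had a median width of 201 bases and a median GC content of 28.6%, against 234 bases and 38.7% for the other 40. Promoters made up 1.31% of the class and 15.1% of the other regions.

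Signal of the 12 ERBB4 regions differed between the libraries of 1 group. Their median deviation from the SCC6 mean was 0.58, 0.33 and -0.15 in cetuximab replicates 1 to 3 and -0.19, -0.33 and -0.23 in PBS replicates 1 to 3 on the log2 scale. Over the 13565 regions of the class the values were 0.57, 0.34 and -0.15, then -0.16, -0.29 and -0.24. In SCC6, 2360 regions of the class were called higher and 27 lower, beside 14622 higher and 9152 lower of all 86315 tested, and the median change was 0.48 in the class and 0.11 over all regions. The call at 58420 (change 0.60 ± 0.22, adjusted p = 0.0349) is 1 of 2 called in this class. It was not called without any single SCC6 library other than cetuximab replicate 3 (0.0513 to 0.276). Without the class, 7 of 37 member regions were called in SCC6 in place of 9 of 50. The part of library composition in these calls was not tested.

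**Figure D4:**
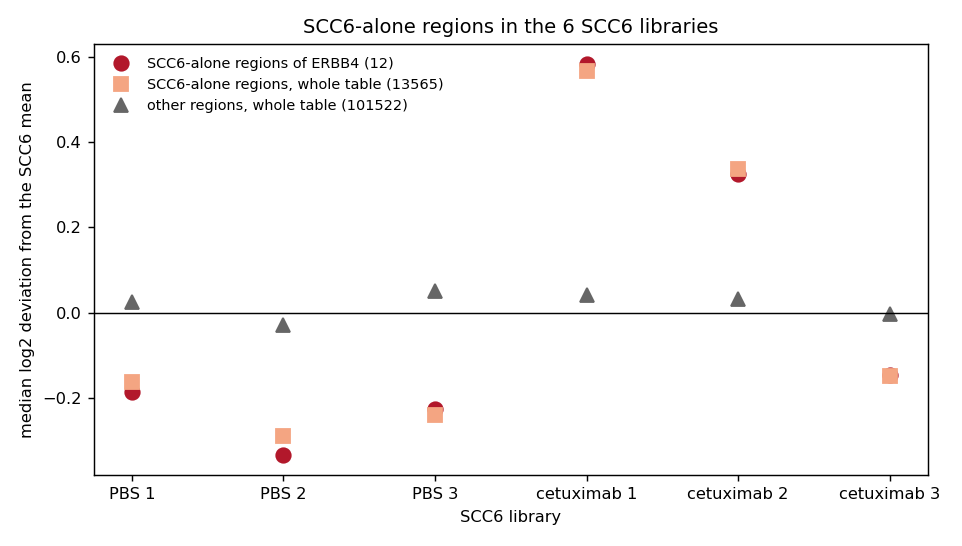
Median log2 deviation from the SCC6 mean (vertical axis) in the 6 SCC6 libraries for the 12 SCC6-alone ERBB4 regions, all 13565 SCC6-alone regions and all 101522 other regions. Cetuximab replicates 1 and 2 lie above 0.3 for both SCC6-alone sets, and cetuximab replicate 3 lies near the PBS replicates.

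A scaling choice moved the whole table in 2 of the lines. Centring each library on its median took the median change over all tested regions from -0.091 to 0.097 in SCC1 and from 0.11 to -0.060 in SCC6. Calls over all regions went from 3949 higher and 5664 lower to 6852 and 3647 in SCC1, and from 14622 and 9152 to 10394 and 15782 in SCC6. Without centring, the median change of tested ERBB2 regions reached 0.85 in SCC1 and stood at -0.17 in SCC6 and 0.050 in SCC25. The medians were 0.28, -0.17 and 0.073 for ERBB3 and -0.17, 0.45 and -0.19 for ERBB4. The corresponding medians over all tested regions were -0.091, 0.11 and -0.083.

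Peaks called by the authors in single libraries were counted over the members as well. A library had a peak over 1 to 3 of the 9 ERBB2 regions in SCC1, 5 to 9 in SCC6 and 0 to 3 in SCC25. For ERBB3 the counts were 3 to 4, 2 to 6 and 1 to 7 of 7, and for ERBB4 5 to 11, 22 to 36 and 10 to 29 of 52. Libraries held 13035 to 36033 peaks in SCC1, 47441 to 101272 in SCC6 and 18642 to 81963 in SCC25, so differences between lines in the presence of a peak are descriptions only. The ERBB2 intronic region 43270 had a peak in 3 SCC1 and 6 SCC6 libraries and in 0 SCC25 libraries, with a fold enrichment of 2.44 to 4.77 over the local background.

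Some ERBB4 regions share their bases with other places in the genome. In region 58437 (chr2:212753271-212753888), 94.4% of 32-base words occur elsewhere in GRCh37. Peaks were called there in 12 libraries, while its mean signal in the table was 2.12. Region 58427 (chr2:212640625-212640948) shares 22.2% of its words with other places and 3.75% with mitochondrial sequence, and its signal was 110.9 in SCC1 cetuximab replicate 2 against at most 12.7 in the other 16 libraries.

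The other genes of the pathway were read at their promoters, 54 genes from ligands to downstream kinases, of which 51 had a promoter region and 48 were tested in SCC1, SCC6 and over the lines. In SCC1, 10 of 48 promoters rose and none fell, beside the 13.6% and 1.6% of all promoter regions given above. Over all regions in SCC1, removal of the GC trend took the calls from 3949 higher and 5664 lower to 1362 and 2795. For the single pathway promoters no value after GC removal or without single libraries is given. SCC1 with PBS also held fewer libraries than the other groups, so the SCC1 rises below carry these limits. SHC1, an adaptor that docks on activated receptors and shares its region with CKS1B, rose by 0.88 ± 0.17, from 216 ± 10.7 to 400.2 ± 61.9, adjusted p = 2.78e-05. GRB2, which links receptors to RAS, rose by 0.90 ± 0.20, from 130.1 ± 16.6 to 246 ± 45.8, adjusted p = 0.000427, and its partner in that route HRAS rose by 0.95 ± 0.24, from 77.7 ± 19.7 to 151 ± 27.9, adjusted p = 0.00267.

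Of 15 downstream promoters tested, 5 rose in SCC1. AKT2, a kinase of the PI3K route, rose by 1.06 ± 0.29, from 46.9 ± 22.1 to 94.3 ± 16.5, adjusted p = 0.00627. STAT3, a transcription factor activated by growth factor and cytokine receptors, rose by 0.73 ± 0.18, from 181 ± 20.3 to 309 ± 87.1, adjusted p = 0.00231. Of 6 stabilisers and partners 1 rose, namely SRC, a cytoplasmic kinase that works with EGFR family receptors, by 0.92 ± 0.27, from 55.3 ± 10.2 to 106 ± 16.8, adjusted p = 0.0122.

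In SCC6, 1 of 48 rose and 10 fell, beside 3.77% and 10.9% of all promoter regions. EGFR itself was the one that rose, by 0.42 ± 0.13, from 149 ± 11.9 to 199 ± 11.2, adjusted p = 0.00982. PIK3CA, the catalytic subunit of PI3K, fell (-0.34 ± 0.09, from 351 ± 15.5 to 276 ± 16, adjusted p = 0.00472). TFAP2C, a TFAP2 family factor that activates ERBB2, fell (-0.34 ± 0.11, from 288 ± 31.6 to 227 ± 12.8, adjusted p = 0.0129), and so did PTK6, a kinase that associates with ERBB receptors (-0.36 ± 0.11, from 270.4 ± 31.5 to 211 ± 31.6, adjusted p = 0.0161).

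SCC25 had 0 of 49 promoters of this list called by limma. Over all lines, EGFR was the 1 promoter called in 48, with a change of 0.36 and an adjusted p of 0.0246. The response differed between lines at 7 of the 48, beside 13.2% of all regions. The EGFR promoter changed by 0.61 in SCC1 (adjusted p = 0.0498), 0.42 in SCC6 and 0.12 in SCC25 (adjusted p = 0.79).

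Promoters whose level followed each gene most closely over the 17 libraries were ranked by Pearson correlation of log2 signal, as a description, since libraries of a line share their line, treatment and depth. For the strongest ERBB2 promoter region the first was the region shared by RTEL1 and STMN3 (r = 0.894), then UBE2R2 (r = 0.882). ERBB3 was followed by UFM1 (r = 0.874), FANCG (r = 0.864) and SEC13 (r = 0.861). ERBB4 was followed by FBXO21 (r = 0.847), SAP30L (r = 0.845) and CPQ (r = 0.844), among 12552 to 12633 candidate genes.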

How the data were processed

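ATAC-seq libraries of 3 HNSCC cell lines were analysed from the region table and the peak lists of single libraries. Per the labels and the methods of the study, the reads behind the files came from Bowtie2 2.3.2 alignments to hg19, preceded by Trim Galore 0.5.0 for adapters and filtered with Picard 2.18 (duplicates, mitochondrial DNA) and SAMtools 1.9 (reads of low quality), and MACS2 gave broad peaks; the MACS2 and DiffBind settings are not given in the sources used here.

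The authors deposited a signal per region and library, made with DiffBind over a merged peak set. Each value was a whole read count, with 0 set to 1, times 1 step per library (0.331 to 1.95), with every value whole within 0.001, so the library scaling came from the authors. The peak lists deposited by the authors give a fold enrichment, −log10 of the p- and q-values and a display score, of which the fold ratio and the positions were used.

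Signal was tested as log2(signal + 1) with limma 3.58.1 (trend and robust options, R 4.3.3), after the lowest 25% of regions by mean signal were left out of each fit. SCC1, SCC6 and SCC25 were fitted separately for cetuximab against PBS. All 17 libraries entered 1 fit for the mean response and the interaction of line and treatment, and the 8 PBS libraries 1 fit for the lines. Adjusted p-values are Benjamini-Hochberg over all regions tested. The signal is not a raw count table, so limma was used, and edgeR 4.0.16 and DESeq2 1.42.0 on the recovered reads were alternatives. Replicate pairs of a group differed by more than counting noise, the chi-square divided by its degrees of freedom being 1.92 to 3.49 in 16 pairs.

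Named regions were the strongest promoter region of each gene, up to 8 called regions per gene, those with the smallest adjusted p between PBS groups and up to 6 promoters of the pathway list per comparison. For likeness, 3 promoters were named per gene. Regions 43269, 43273, 58427, 58437, 58439, 58453 and 58460 were named outside this rule after their values were seen. The members and lists were chosen with earlier results of these data known. Sequences were read from GRCh37. Other alternatives were centring, quantile scaling, removal of a GC trend, other pseudocounts and filters, other flanks and each library left out. Some genes and 1 sequence are not reported here.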

Additional observations from a re-analysis of the deposited data

Results flagged for a closer look

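At 4 regions the response to cetuximab differed between the 3 lines by the interaction test of limma over all regions. The ERBB4 intronic region 58413 had an adjusted p of 0.0136, with changes of 0.60 in SCC1, 0.49 in SCC6 and -0.19 in SCC25. Region 58434, in another ERBB4 intron, had 0.0244, and region 58454 had 0.0282. The promoter region 24149 of ESYT1 and ZC3H10, in the flank of ERBB3, had 0.0363. These are 4 of 53 member regions tested, where 13.2% of all regions were called.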

How the results depend on the processing

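Counts of member regions called were 6 in SCC1, 9 in SCC6, 0 in SCC25, 4 over all lines, 4 for the interaction, and 29, 21 and 41 for SCC6 against SCC1, SCC25 against SCC1 and SCC25 against SCC6 with PBS. In the same order, 49, 50, 49, 53, 53, 52, 52 and 52 member regions were tested. Over all regions the calls were 9613, 23774, 272, 10511, 11388, 52827, 44291 and 59309, of 86315 to 86321 tested. An adjusted p under 0.01 gave 2 in SCC1, 3 in SCC6, 0 over all lines and 0 for the interaction. Centring on the median gave 12 in SCC1 and 11 for the interaction, beside 10499 and 14491 of all regions. Removal of the GC trend gave 3 in SCC1, 5 in SCC6 and 1 over all lines, beside 4157, 20494 and 8874 of all regions. No filter gave 3 in SCC1, and a filter of 50% gave 16 for SCC6 against SCC1 and 24 for SCC25 against SCC6, with fewer regions tested. edgeR gave 1 in SCC25 and 10 for the interaction, beside 956 and 17291 of all regions. DESeq2 gave 10 for the interaction, beside 15756. All libraries in 1 fit gave 4 in SCC6. With a replicate block the counts were 7 in SCC1, 10 in SCC6, 0 over all lines and 6 for the interaction. Over all regions they were 12451, 24768, 4271 and 13204. Correlations of deviations were -0.042 to 0.026 for the 8 pairs of libraries with the same number and -0.056 to 0.076 for the 16 with different numbers, so the numbers were not taken as a pairing. Leaving out single libraries gave 0 to 7 in SCC1, 3 to 14 in SCC6, 0 in SCC25, 1 to 5 over all lines, 2 to 7 for the interaction, 24 to 28 for SCC6 against SCC1, 16 to 22 for SCC25 against SCC1 and 33 to 41 for SCC25 against SCC6. Without SCC6-alone regions, an alternative chosen after seeing the data, the 8 counts were 6, 7, 0, 3, 4, 20, 20 and 32. The causes were not tested.

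Signs changed for some single regions, and none of these values was called in the treatment comparisons. The ERBB2 promoter region 43267 turned in SCC25 to -0.013 after GC removal and ran from -0.16 to 0.36 without single libraries (-0.16 or -0.032 on leaving out cetuximab replicate 1 or 2, -0.015 for PBS replicate 2). Over all lines it turned to -0.0037 with the replicate block, and to -0.088, -0.0037, -0.11, -0.045, -0.0068 and -0.0016 without 6 single libraries. Between SCC25 and SCC1 it was 0.0045 after GC removal. The ERBB3 promoter region 24146 was -0.065 in SCC6 after centring and 0.15 for SCC6 against SCC1 after GC removal. The ERBB4 promoter region 58461 ran from -0.52 to 0.11 in SCC25 without single libraries (0.11 on leaving out cetuximab replicate 3), and for SCC25 against SCC1 was 0.14 after GC removal and ran from -0.41 to 0.059 (SCC25 PBS replicate 3 left out). With PBS and after GC removal, ERBB4 regions turned to -0.011 (58457, SCC6 against SCC1), -0.13 (58413, SCC25 against SCC1), and, for the SCC6-alone region 58418 of 22.9% GC, to -0.94 for SCC6 against SCC1 and 1.58 for SCC25 against SCC6. Both reversed values of 58418 were called, as were all 15 alternatives in each of these comparisons. The values of 58418 are fitted against libraries of 0 or 1 read and are no measure of a fold.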
